A study of Mus musculus with 2 samples.

Results

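A small set of blood neutrophils carried high levels of Camp, Ngp and Ltf, the genes of secondary granule proteins. In the WT library 92 of 7873 neutrophils belonged to this set, and in the APP/PS1 library 199 of 8744, which is 291 of 16617 neutrophils and of 34768 barcodes in all. A barcode was taken as a neutrophil when it held at least 1000 unique molecular identifiers (UMIs, each standing for 1 captured RNA molecule), at most 10% mitochondrial UMIs, under 5% UMIs of Hba-a1, Hba-a2, Hbb-bs and Hbb-bt, and at least 5% UMIs of S100a8 and S100a9. It was called Camp/Ngp/Ltf-high when these 3 genes together reached 20 UMIs per 10000, and all neutrophils below that limit served as the other neutrophils of the same library. The cells were selected on their measured Camp, Ngp and Ltf UMIs, so every difference between them and the other neutrophils is given as a description without a test.

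The data were 2 single-cell libraries, 1 from WT mice and 1 from APP/PS1 mice, both untreated as far as the labels tell. APP/PS1 mice carry mutant human amyloid precursor protein and presenilin 1 transgenes, whose promoters are not given in the sources used here, and develop amyloid plaques in the brain. Each library held cells of 3 pooled mice that were 7 months old, and the methods state the female sex for the APP/PS1 mice and list C57BL/6J among the mice bought, without tying that strain to the WT library. Neutrophils were enriched from blood after red cell lysis with a negative selection kit, and RNA was counted at its 3′ end with the 10x Genomics v3 chemistry. Mice of a genotype could not be told apart, so there was 1 sample per genotype, no replicate error and no p-value. All intervals are exact intervals at the 95% level unless another method is named, and they cover counting error only. The libraries held 92458623 UMIs in 17123 barcodes for WT and 84870864 UMIs in 17645 barcodes for APP/PS1, and 83 barcode sequences occurred in both, of which 1 was a high cell in WT and 3 were high cells in APP/PS1.

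Neutrophils fill their granules in a fixed order while they mature in the bone marrow. Azurophil granules with myeloperoxidase and serine proteases come first, at the promyelocyte stage, secondary (specific) granules with lactoferrin and cathelicidin follow in myelocytes and metamyelocytes, and gelatinase granules come last, in band cells. Transcription of the secondary granule genes needs the factor C/EBPε and is shut off before the segmented neutrophil normally leaves the marrow, although the proteins stay in the cell.

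Camp encodes the cathelicidin antimicrobial peptide, Ngp a cystatin-like neutrophilic granule protein, and Ltf the iron-binding lactoferrin. All 3 genes lie on chromosome 9 of mm10 within 1195 kb, Camp (ENSMUSG00000038357) at chr9:109847379-109849617 on the minus strand, Ngp (ENSMUSG00000032484) at chr9:110419747-110423012 and Ltf (ENSMUSG00000032496) at chr9:111019271-111042767, both on the plus strand. The bases upstream of these genes and of Chil3, a secreted chitinase-like protein that was not part of the selection, are shown because C/EBP factors are the known regulators of this gene group. They come from RefSeq (GRCm38.p6) and stop where the GENCODE gene begins. Capitals mark matches to the C/EBP-type letters TTNNGNAA or their reverse complement TTNCNNAA. All are written 5′ to 3′ on the strand of the gene, Camp from chr9:109849618-109849706, Ngp from chr9:110419558-110419746, Ltf from chr9:111019042-111019270 and Chil3 from chr3:106167565-106167814 on the minus strand.
Camp: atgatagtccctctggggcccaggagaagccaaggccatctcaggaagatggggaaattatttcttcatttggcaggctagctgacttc
Ngp: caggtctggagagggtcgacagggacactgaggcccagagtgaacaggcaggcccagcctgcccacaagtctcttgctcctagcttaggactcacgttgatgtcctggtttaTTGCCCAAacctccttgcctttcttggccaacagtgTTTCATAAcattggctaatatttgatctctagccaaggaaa
Ltf: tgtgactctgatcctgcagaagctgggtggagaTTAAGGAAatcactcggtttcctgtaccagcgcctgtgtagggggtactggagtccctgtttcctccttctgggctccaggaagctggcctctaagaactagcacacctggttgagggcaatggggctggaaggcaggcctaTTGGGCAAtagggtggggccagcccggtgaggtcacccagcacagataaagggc
Chil3: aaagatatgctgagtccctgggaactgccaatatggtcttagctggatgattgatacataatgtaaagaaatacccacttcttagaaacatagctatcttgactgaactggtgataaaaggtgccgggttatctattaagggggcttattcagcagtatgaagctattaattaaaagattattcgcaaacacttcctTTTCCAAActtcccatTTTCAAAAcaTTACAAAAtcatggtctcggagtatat
No match lay in the 89 bases of Camp, where 16.7% of 32851 RefSeq promoters hold one over the same window. Each window begins 250 bases before the RefSeq start, so the shorter ones leave out the bases nearest to it, most of all for Camp. The genes are thus not compared over like stretches. Ngp held 2 matches in 189 bases (31.1% of promoters hold at least one there), Ltf 2 in 229 bases (35.0%) and Chil3 3 in 250 bases (36.8%). The Ngp match TTGCCCAA, 138 to 131 bases before the RefSeq start, is the reverse complement of the Ltf match TTGGGCAA at 75 to 68 bases, and 0.688% of promoters hold these letters on either strand over the Ltf window. This shared word was picked after the matches were seen. A match is a string of letters and no evidence of binding.

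The share of Camp/Ngp/Ltf-high cells was 1.17% (0.943 to 1.43%) of neutrophils in WT and 2.28% (1.97 to 2.61%) in APP/PS1. The difference was 1.11 percentage points (Newcombe interval 0.715 to 1.50) and the ratio 1.95 (1.51 to 2.52). The share was thus higher in the APP/PS1 library by more than counting error, but a difference between genotypes cannot be told apart from a difference between 2 pools of mice or 2 enrichments. With a limit of 200 per 10000 the difference was 0.699 points, and with at least 10% of UMIs from S100a8 and S100a9 it was 1.74 points.

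The Camp, Ngp and Ltf level separated most high cells widely from the limit. The summed level ran from 20.3 to 1418 per 10000 in WT with a median of 440, and from 20.4 to 1219 in APP/PS1 with a median of 383. At least 200 per 10000 was reached by 62 high cells in WT (67.4%) and by 130 in APP/PS1 (65.3%). Just inside the limit, between 20 and 25 per 10000, stood 4 WT and 7 APP/PS1 cells, and just outside, between 15 and 20, stood 7 and 11. The closest values were 20.3 against 19.8 in WT and 20.4 against 19.4 in APP/PS1. Most of the other neutrophils had no UMI of the 3 genes at all, namely 6966 of 7781 in WT (89.5%) and 7384 of 8545 in APP/PS1 (86.4%).

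**Figure D1:**
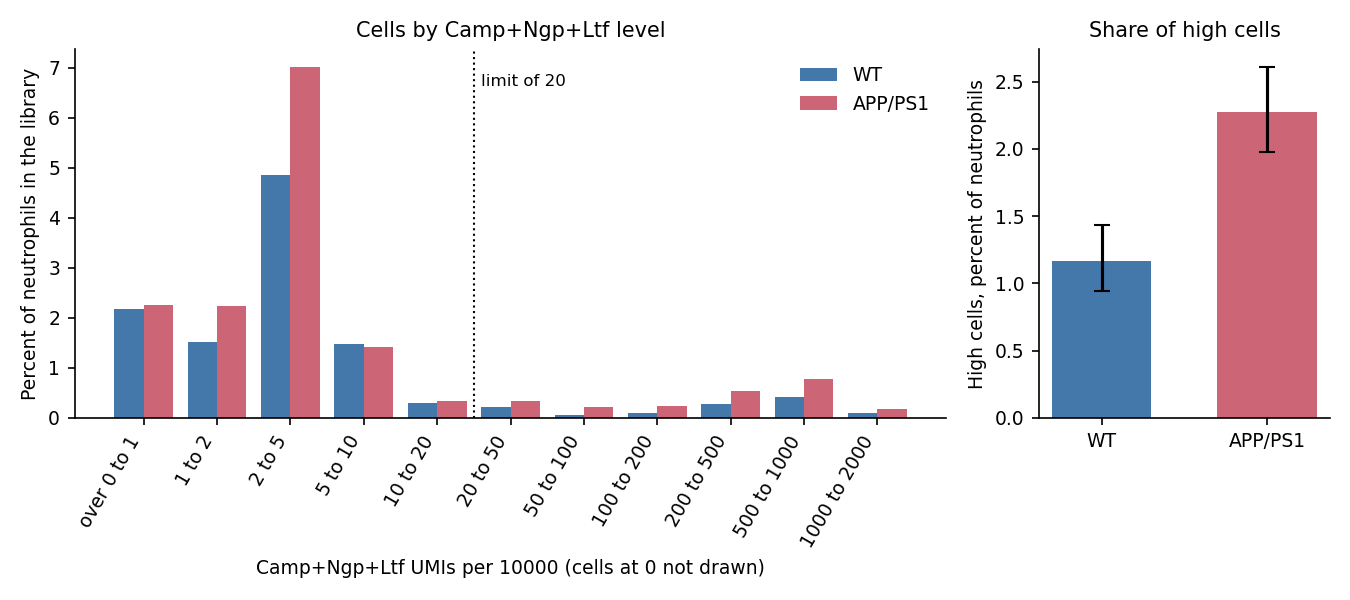
The left panel plots the percent of neutrophils of each library (y axis) by their Camp, Ngp and Ltf UMIs per 10000 (x axis), without the cells at 0, and the right panel the share of high cells with exact 95% intervals as bars. Most high cells lie at 200 per 10000 or above, and the share was 1.17% in WT and 2.28% in APP/PS1.

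The selection used the sum of the 3 genes, so how they occur together in its cells is a description only. All 3 were found in 74 of 92 WT cells (80.4%) and in 168 of 199 APP/PS1 cells (84.4%). For Camp the median was 140 per 10000 in WT (highest 629) and 115 in APP/PS1 (highest 593), for Ngp 217 (692) and 179 (661), and for Ltf 85.7 (202) and 60.7 (232). Over the high cells, Spearman's rho between Camp and Ngp was 0.92 in WT (n = 92 cells) and 0.89 in APP/PS1 (n = 199 cells), between Camp and Ltf 0.87 and 0.88, and between Ngp and Ltf 0.87 and 0.89. These values describe cells of 1 library each, which share the UMIs of a cell as denominator. Outside the high cells, the genes summed to 0.341 UMIs per 10000 in WT and 0.430 in APP/PS1. Camp was at 0.0507 in WT and 0.116 in APP/PS1, Ltf at 0.0284 and 0.0624, and Ngp at 0.262 and 0.252. Camp and Ltf were thus higher in APP/PS1 outside the selected cells too, and Ngp was not. At least 1 UMI of the 3 genes was found in 10.5% of other WT neutrophils (median depth 2702 UMIs) and 13.6% of other APP/PS1 neutrophils (2878 UMIs). Lymphocytes, which should lack the genes, were a subset of 393 cells in WT and 560 in APP/PS1, whose choice is not described here. At least 1 UMI was found in 3.56% of them in WT (median depth 3900 UMIs) and 7.50% in APP/PS1 (3783 UMIs). Their level was at most 2.77 and 5.33 per 10000 in any cell, well under the limit.

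High cells held more RNA than the other neutrophils. The median was 6509 UMIs against 2702 in WT and 7277 against 2878 in APP/PS1, ratios of 2.41 and 2.53. Genes detected per cell were 1599 against 992 in WT and 1697 against 1033 in APP/PS1. With each cell thinned to 1000 UMIs the order turned, with 419.5 genes against 502 in WT and 425 against 501 in APP/PS1. A few genes took a large part of the UMIs: S100a8 and S100a9, the subunits of calprotectin, made up a median of 31.4% against 14.6% of UMIs in WT and 29.7% against 12.7% in APP/PS1. The median mitochondrial share was 0.504% against 0.319% in WT and 0.433% against 0.252% in APP/PS1.

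UMIs were next summed over the high cells and over the other neutrophils of each library and given as CPM (UMIs scaled to a common total). Of 4230 genes with an average of at least 20 CPM over the 4 sums, 183 were over 2-fold higher in high cells in both libraries, which is 4.33% of the genes tested, and 448 were over 2-fold lower, which is 10.6%. These percentages are the background against which the gene lists below can be read, although the choice of the cells used the same contrast. The median log2 ratio of all genes was -0.33 in WT and -0.22 in APP/PS1. When Camp, Ngp, Ltf, S100a8, S100a9 and mitochondrial genes were left out of the totals, of which they took 34.8% in WT high cells and 14.4% in the other WT neutrophils, the median over both libraries moved up by 0.39 from -0.28 to 0.10. Of 4856 genes then measured, 406 were higher and 221 lower, so that 64.8% of the calls were higher and not 29.0%. List counts given below under these totals are to be read against these numbers.

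Other secondary granule genes were higher in the high cells. Of 11 measured, 7 passed 2-fold in both libraries and none was over 2-fold lower, with a median log2 ratio of 2.33 in WT and 2.73 in APP/PS1. Lcn2, the siderophore-binding lipocalin 2, was at 10938 CPM in high cells against 1446 in other neutrophils in WT (7.56-fold) and at 10437 against 1172 in APP/PS1 (8.91-fold), and every high cell of both libraries held it. The median of Lcn2 was 98.1 UMIs per 10000 in WT high cells (6.75 to 339) and 99.9 in APP/PS1 high cells (7.94 to 402). Chil3 was at 1789 against 70.3 CPM in WT (25.4-fold) and at 2063 against 87.9 in APP/PS1 (23.5-fold). It was found in 76.1% of WT and 78.9% of APP/PS1 high cells, against 8.03% and 8.43% of other neutrophils, and after thinning to 1000 UMIs in 56.5% and 53.3% against 2.35% and 2.75%. Lymphocytes, taken as background, held Chil3 UMIs in 3.56% of WT and 4.64% of APP/PS1 cells before thinning. Their shares for Lcn2 were 8.65% and 10.4%.

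Cybb, the large membrane subunit of the NADPH oxidase that is stored in secondary granules, was at 2148 against 428 CPM in WT (5.02-fold) and at 1906 against 288 in APP/PS1 (6.62-fold). Cd177, a surface glycoprotein of the same granules, was 19.1-fold higher in WT (1312 against 68.8 CPM) and 20.2-fold higher in APP/PS1 (1191 against 58.9). Olfm4, a granule glycoprotein present in only a fraction of neutrophils, had UMIs in 8 high cells of WT and 28 of APP/PS1 and was 10.0- and 18.0-fold higher. Orm1, an acute phase glycoprotein, had UMIs in 23 and 37 high cells and was at 110 against 0.613 CPM in WT and at 60.8 against 0.233 CPM in APP/PS1. Ceacam10 was 3.26- and 2.39-fold higher. The remaining 4 genes were nearer to the other neutrophils. Lysozyme Lyz2 stood at a ratio of 1.74 in WT and 2.19 in APP/PS1, the peptidoglycan-binding Pglyrp1 at 1.75 and 1.64, the oxidase subunit Cyba at 1.09 and 1.05, and haptoglobin Hp at 0.832 and 0.656.

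**Figure D2:**
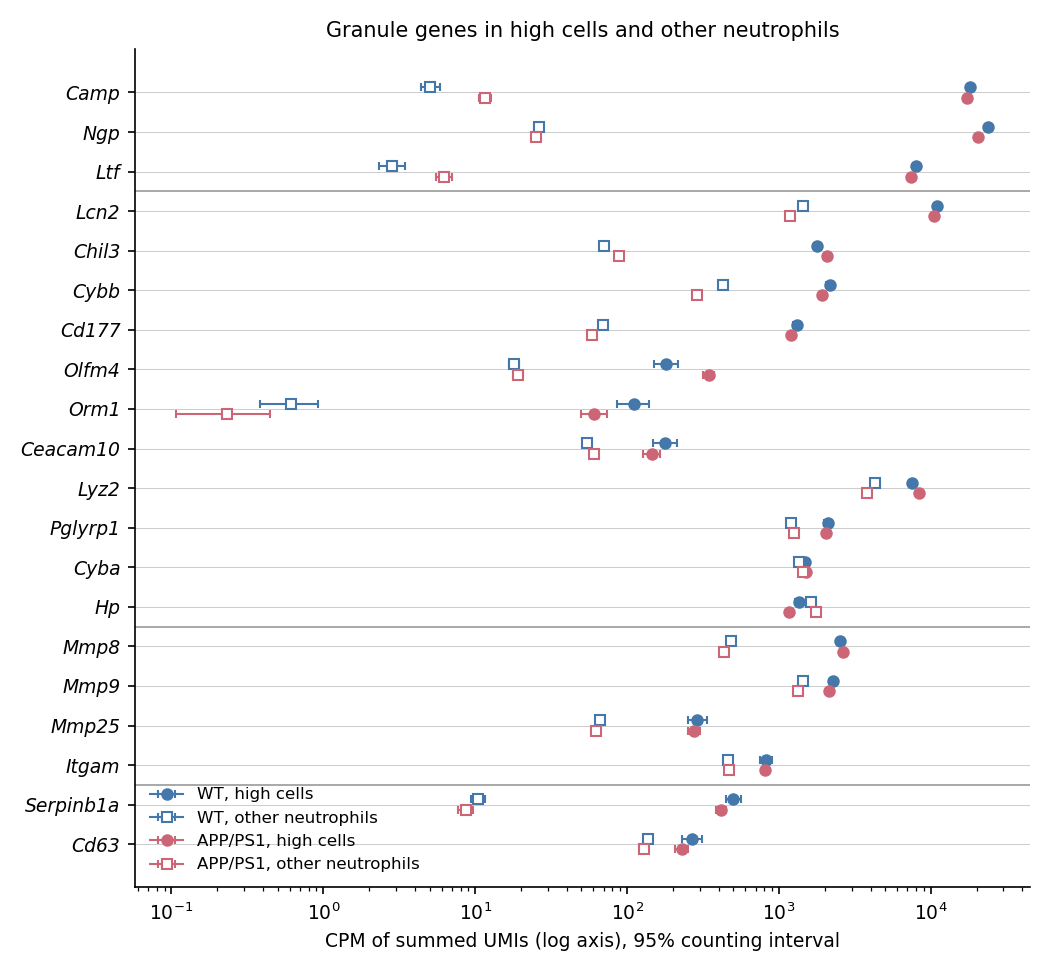
CPM of summed UMIs (x axis, log scale) is plotted for granule genes (rows), with filled points for high cells, open squares for other neutrophils, blue for WT, red for APP/PS1, and bars for 95% counting intervals. Camp, Ngp and Ltf chose the cells, and Lcn2, Chil3, Cybb and Cd177 lie to the right of the other neutrophils in both libraries, while Cyba nearly overlaps with them.

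The list of earlier azurophil granule genes summed to 819 CPM in high cells against 253 in other neutrophils in WT and to 716 against 213 in APP/PS1, but its defining proteases were at or near 0. Mpo, Elane and Ctsg, which encode myeloperoxidase, neutrophil elastase and cathepsin G, had 0 UMIs in the high cells of both libraries, and a floor of 3 counts over the high cells corresponds to 4.59 CPM (WT) and 1.83 CPM (APP/PS1). Prtn3, proteinase 3, was at 1.53 and 4.26 CPM. Only 3 genes of the azurophil list were abundant enough to be counted, and 1 of them was higher, Serpinb1a, a cytosolic inhibitor of these proteases, at 501 against 10.4 CPM in WT (47.9-fold) and 413 against 8.64 in APP/PS1 (47.8-fold). In the list of gelatinase granule genes, 2 of 7 measured genes were higher, Mmp8 and Mmp25, and none was lower. The placing of each gene in a granule type was set by the list and was not tested. With a limit of 200 per 10000 for the high cells, 2 of these 7 were higher and 1 lower. At the same limit, 2 of the 3 azurophil genes were higher and 1 lower. Neutrophil collagenase Mmp8 was at 2528 against 481 CPM in WT and 2644 against 435 in APP/PS1, and Mmp25, a membrane-bound metalloproteinase, was 4.34- and 4.44-fold higher. Gelatinase itself, Mmp9, stood at a ratio of 1.57 and 1.58, and the integrin chain Itgam at 1.78 and 1.72. None of 5 measured secretory vesicle genes passed 2-fold in both libraries, with medians of -0.43 in WT and -0.06 in APP/PS1 that lay above zero (0.13 over both) with the totals that left out the abundant genes.

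Among transcription factors of granulopoiesis, Cebpe was at 190 against 15.2 CPM in WT (12.5-fold) and 206 against 17.3 in APP/PS1 (11.9-fold). It was found in 51 of 92 WT high cells (55.4%) and 118 of 199 APP/PS1 high cells (59.3%), against 5.83% and 6.41% of other neutrophils. After thinning to 1000 UMIs the shares were 19.6% in high cells of both libraries against 1.53% and 1.78%. Ets1 was also higher (3.18- and 4.07-fold). Of 14 factors measured, 4 were lower, namely Cebpb (log2 ratio -1.50 in WT and -1.63 in APP/PS1), Cebpd (-1.08 in both), Junb (-1.77 and -1.91) and Fos (-1.46 and -1.55). With the totals that left out the abundant genes 3 were lower, and with limits of 50 and 200 per 10000 for the high cells 6 and 7 were. Cebpb and Cebpd are C/EBP family members that act later than Cebpe, while Junb and Fos encode subunits of the AP-1 factor.

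Among genes outside the lists, the highest ratios included Itgb2l, an integrin beta chain close to Itgb2, at 274 against 3.34 CPM in WT and 164 against 2.77 in APP/PS1. It was detected in 82.6% of WT and 64.8% of APP/PS1 high cells, against 1.43% and 1.17% of other neutrophils. Adpgk, an ADP-dependent glucokinase, was at 591 against 13.6 CPM in WT and 554 against 8.23 in APP/PS1. The lipid transporter family member Abca13 (59.8- and 34.0-fold), the complement regulator Cd55 (23.1- and 18.0-fold) and the Golgi membrane protein Golim4 (17.5- and 19.8-fold) were higher too. Of 11 measured glycolysis genes 2 were higher, Pgk1 (2.31- and 2.02-fold) and Pgam1 (2.54- and 2.32-fold), and none lower, and with the totals that left out the abundant genes 5 were higher. Of 10 stefins, antiproteases, annexins and S100 genes, Wfdc21 (4.98- and 4.82-fold), Anxa1 (4.92- and 3.44-fold) and Anxa3 (14.5- and 14.7-fold) were higher and Stfa2l1, Slpi and Wfdc17 lower.

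Most genes of the maturation list that the study scored were lower, 32 of 50, and Mmp8 alone was higher, with a median log2 ratio of -1.21 in WT and -1.23 in APP/PS1. This list was chosen for neutrophil maturation and several of its genes also stand in other lists here, so it is not independent evidence. Jaml, a junctional adhesion molecule, stood at -2.98 in WT and -2.25 in APP/PS1, Ifitm1, an interferon-induced membrane protein, at -2.80 and -2.23, the chemokine Ccl6 at -2.12 and -2.05, and the phosphatase Dusp1 at -2.17 and -1.93. Retnlg, a resistin-like protein of neutrophils in the same list, stood at 0.61 and 0.69. With the totals that left out the abundant genes, 19 of the 50 were lower and 3 higher.

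Receptors for growth factor and trafficking signals were largely lower, 9 of 13 measured, with medians of -1.53 in WT and -1.33 in APP/PS1. Csf3r, the receptor for granulocyte colony-stimulating factor, was at 429 against 2187 CPM in WT and 636 against 2340 in APP/PS1. Cxcr2, which draws neutrophils out of the marrow, was at 467 against 1269 CPM in WT and 606 against 1432 in APP/PS1, and Cxcr4, which holds them there, was also lower (-1.83 and -1.42). The adhesion ligand Selplg (-1.67 and -1.50) and the chemerin-binding Ccrl2 (-2.83 and -2.13) followed. The leukotriene B4 receptor Ltb4r1 was the 1 member over 2-fold higher (4.17- and 4.22-fold). With the totals that left out the abundant genes 6 of 13 were lower.

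Inflammatory mediators were lower for 11 of 13 genes, with medians of -1.68 in WT and -1.80 in APP/PS1. Il1b, interleukin 1 beta, was at 1674 against 13072 CPM in WT and 2529 against 13778 in APP/PS1. The chemokine Cxcl2 was at 619 against 3620 CPM in WT and 518 against 2674 in APP/PS1, and cyclooxygenase 2, Ptgs2, stood at -3.11 and -2.25. The interleukin 1 receptor antagonist Il1rn (-0.96 and -0.64) and oncostatin M, Osm (-0.87 and -1.11), did not pass 2-fold in both libraries. With the totals that left out the abundant genes 7 of 13 were lower and none higher.

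**Figure D3:**
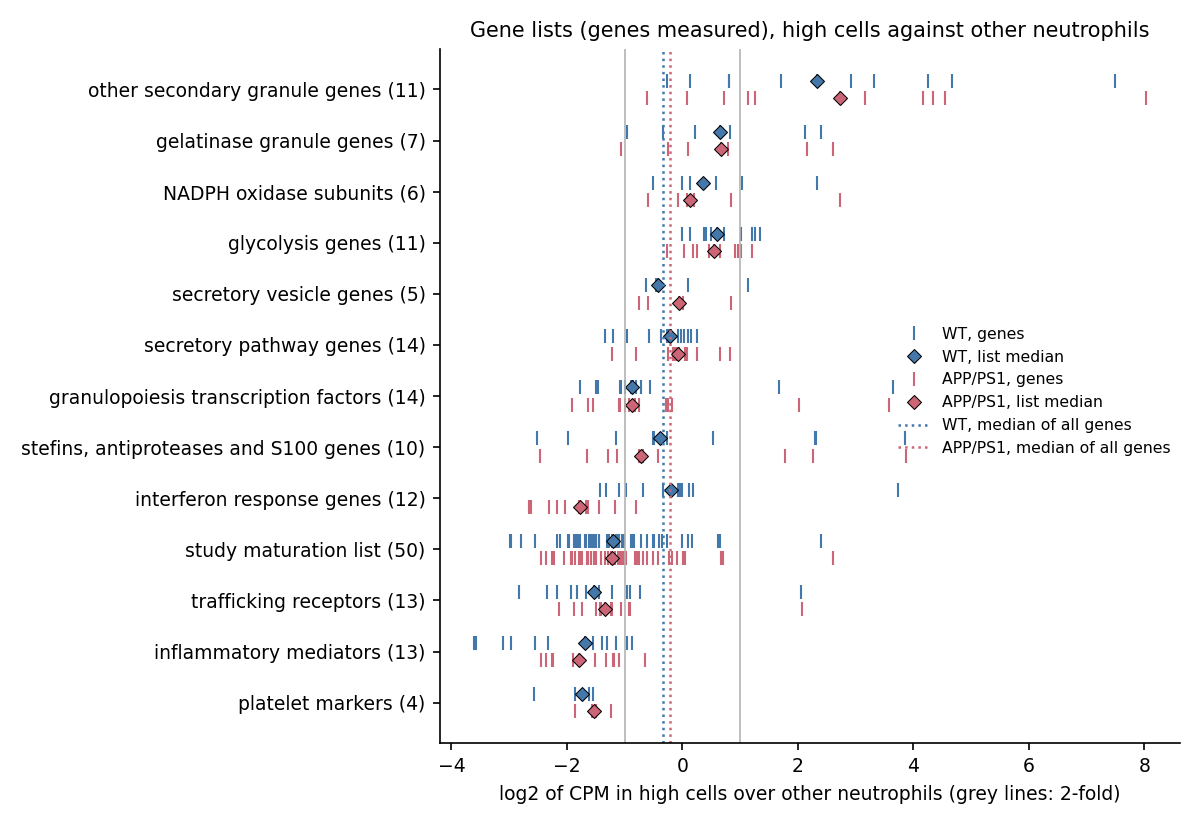
Log2 ratios of CPM in high cells over other neutrophils (x axis) are plotted for the measured genes of each list (rows, number in brackets), ticks being genes, diamonds list medians and dotted lines the median of all genes tested, in blue for WT and red for APP/PS1. Secondary granule genes have medians of 2.33 and 2.73, and maturation, trafficking and inflammatory lists have medians below the 2-fold line on the left.

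Of 6 measured neutrophil markers 1 was higher in the high cells and 3 were lower. Ly6g, the surface marker used to sort mouse neutrophils, was at 756 against 148 CPM in WT and 735 against 133 in APP/PS1, while Hdc, histidine decarboxylase (-1.08 and -1.13), was lower along with Csf3r and Cxcr2. With the totals that left out the abundant genes 3 of the 6 were higher and 1 lower. None of 7 measured proliferation genes passed 2-fold in both libraries, and with the totals that left out the abundant genes 2 were higher and the list median over both libraries was 0.20 in place of -0.17. At least 2 UMIs of 9 cell cycle genes were held by 0 of 92 WT high cells, with an exact upper limit of 3.93%, and by 5 of 199 in APP/PS1 (2.51%, 0.821 to 5.77%), against 0.450% and 0.246% of the other neutrophils at a lower depth. Progenitor markers summed to 6.13 CPM against 4.76 in other neutrophils in WT and to 12.2 against 3.96 in APP/PS1, with UMIs in 4.35% of high cells against 1.93% in WT and 8.04% against 1.47% in APP/PS1, at a higher depth of the high cells. Cd34 was at 0 in the high cells of both libraries, and Kit was the most abundant of the list. Of 14 secretory pathway genes only the chaperone Hspa5 was called, and it was lower (-1.33 and -1.22), a call that was lost with the totals that left out the abundant genes. The counts hold no direct measure of the age of a cell, and immaturity is only read from these lists.

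High cells differed among themselves, and genes outside the selection moved with the Camp, Ngp and Ltf level. The cells were divided at 50, 200 and 1000 per 10000, which left 17, 13, 55 and 7 cells in WT and 29, 40, 115 and 15 in APP/PS1, so that 3 steps in WT and the top step in APP/PS1 held under 20 cells. Lcn2 went over the 4 steps from 4993 through 6903 and 11363 to 23907 CPM in WT and from 4130 through 5970 and 12512 to 19273 in APP/PS1. Chil3 went from 29.1 through 296 and 2019 to 5370 CPM in WT and from 124 through 489 and 2799 to 4532 in APP/PS1. Cebpe went from 29.1 through 68.2 and 222 to 423 CPM in WT and from 50.2 through 105 and 259 to 379 in APP/PS1. In the lowest step, Chil3 and Cebpe of WT rested on so few UMIs that their intervals (6.01 to 85.2 CPM for each) held the level of the other neutrophils.

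Mmp8 and Retnlg stood above the other neutrophils in the lower steps and did not follow the selected genes upwards. Mmp8 was at 1981, 2934, 2855 and 732 CPM over the 4 steps in WT and at 2036, 2903, 2805 and 2019 CPM in APP/PS1, against 481 and 435 in the other neutrophils. Retnlg was at 33812, 29851, 12229 and 1530 CPM in WT and at 21923, 27340, 13878 and 4169 CPM in APP/PS1, against 11129 and 10511 in the other neutrophils. The top step held the lowest Retnlg level of the 4 in both libraries, and the lowest Mmp8 level in WT, while in APP/PS1 the interval of Mmp8 in the top step (1774 to 2288 CPM) overlapped with that of the first (1866 to 2218 CPM). Il1b, Csf3r and Cebpb, which were lower in the high cells as a whole, had their lowest level in the top step. Il1b was at 4526 CPM in the first step and 212 in the last in WT, and at 4919 and 173 in APP/PS1. Csf3r was at 913 and 114 in WT and at 1178 and 222 in APP/PS1, and Cebpb at 2496 and 228 in WT and at 2129 and 280 in APP/PS1. Genes per cell at 1000 UMIs declined over the steps, with medians of 452, 440, 418 and 375 in WT and 469, 426.5, 423 and 406 in APP/PS1. Because levels are shares of all UMIs of a cell, a rise of abundant genes lowers the others, and the size of that part was not measured step by step.

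**Figure D4:**
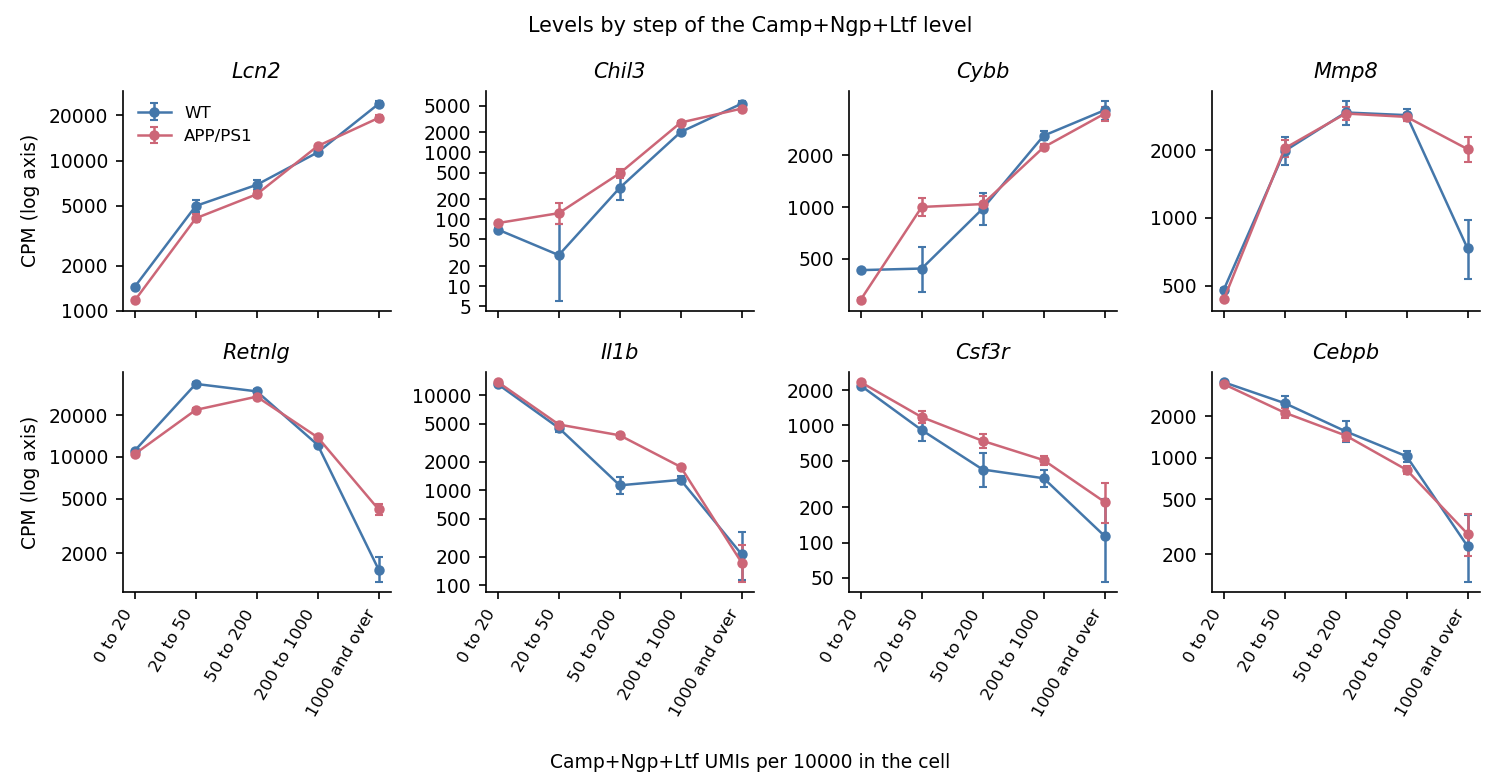
CPM (y axes, log scale) of 8 genes is plotted by step of the Camp, Ngp and Ltf level per 10000 (x axes), the first step being the other neutrophils, in blue for WT and red for APP/PS1 with 95% counting intervals. Lcn2, Chil3 and Cybb are highest in the last step, Mmp8 and Retnlg have their peak in between, and Il1b, Csf3r and Cebpb are lowest in the last step.

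The genes most like the Camp, Ngp and Ltf level over single high cells were ranked by Spearman's rho, with 92 WT cells and 199 APP/PS1 cells. Chil3 came first with 0.86 in WT and 0.85 in APP/PS1, followed by Anxa1 (0.82 and 0.74), Cybb (0.82 and 0.74), Lcn2 (0.71 and 0.78) and AA467197 (0.70 and 0.74). Cpne3, Arhgdib, Serpinb1a, Lta4h and Ltb4r1 completed the 10 highest. The lowest were Retnlg (-0.75 and -0.64), the granule proteoglycan gene Srgn (-0.69 and -0.68) and Ccl6 (-0.73 and -0.60). With the UMIs of the cell, the level itself had a rho of 0.33 (WT) and 0.19 (APP/PS1). All values share the library and the UMI total of each cell and are a description.

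Within the high cells, APP/PS1 was compared with WT, and the same ratio in the other neutrophils was set beside it. Of 2155 genes with a mean of at least 50 CPM in high cells, 18 were over 2-fold higher in APP/PS1, which is 0.835% of those tested, and 10 were over 2-fold lower, which is 0.464%. The median log2 ratio was 0.04 in high cells and -0.01 in other neutrophils. Of the secondary granule genes, 0 of 11 passed 2-fold in either direction, with a median of -0.07 in high cells and 0.07 in other neutrophils. With 0.835% and 0.464% of all genes past 2-fold, a count of 0 of 11 does not set these genes apart. Of the 28 genes past 2-fold, 3 also passed it in the same direction in other neutrophils, namely Cd14, Nfil3 and Cd3d.

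Cd14, the lipopolysaccharide co-receptor, was at 796 CPM in WT and 168 in APP/PS1 high cells, a log2 ratio of -2.25 (-2.46 to -2.03), against -1.53 in other neutrophils. It was found in 83 of 92 WT and 94 of 199 APP/PS1 high cells. Nfil3, a leucine zipper repressor, stood at -1.41 (-1.95 to -0.86), against -1.03 in other neutrophils, and Thbs1, thrombospondin 1, at -1.19 (-1.33 to -1.06), against -0.44. Cd3d, a T cell receptor chain, was at 16.8 CPM in WT and 127 in APP/PS1, a log2 ratio of 2.92 (2.05 to 3.94) against 2.47 in other neutrophils, with UMIs in 10 of 92 WT and 92 of 199 APP/PS1 high cells. The T cell markers Trac and Lck were at 0 in the WT high cells, and the 5 T cell markers summed to 26.0 CPM in WT and 31.6 in APP/PS1. In WT, however, 1 cell held 88.2% of these UMIs, without which the sum was 3.14 CPM, and cells with any of them were 3 of 92 in WT and 18 of 199 in APP/PS1. Ccrl2, which lies beside Ltf at chr9:111054486-111057519, was at 36.8 CPM in WT and 119 in APP/PS1 high cells, 1.69 on the log2 scale (1.07 to 2.37), beside 261 CPM in WT and 521 in APP/PS1 other neutrophils, just under 2-fold.

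The largest ratios came from few cells. Jchain, Igkc and Igha, genes of secreted antibody, had log2 ratios of 7.90 (5.42 to 13.21), 7.82 (6.69 to 9.26) and at least 7.69, the last against a floor of 3 counts over the WT high cells, which held 0 UMIs of Igha. In APP/PS1, 603 UMIs of Jchain lay in 4 cells, 3406 of Igkc in 26 and 1558 of Igha in 12, and 1 cell held 57.5%, 51.8% and 61.3% of them. Without barcodes of at least 10 UMIs of these 3 genes, the Igkc ratio was 0.83. This setting was chosen after the values were seen and left out 4 APP/PS1 and 0 WT high cells. Igkc was among the genes used for it, so a fall of Igkc was built into the setting. The MHC class II invariant chain Cd74 (2.64, with 266 UMIs in 33 APP/PS1 cells), Apoe (1.53, with 406 UMIs in 51 cells), Csf1 (2.24, with 155 UMIs in 33 cells) and Ighm (1.36, with 168 UMIs in 49 cells, 38.7% of them in 1) were higher too. After the removal of 12 WT and 43 APP/PS1 high cells with markers of other cell types, 4 genes were higher and 21 lower. Cd74 then stood at 0.32, Csf1 at 0.41, Apoe at 1.43 and Ighm at 0.12. Cd3d stood at 3.12, Ccrl2 at 1.26 and Cd14 at -2.33. Ighm is itself one of the B cell markers used for this removal, so its fall follows from the filter and is no separate check. Apoe stood at 0.84 with a limit of 50 per 10000, 0.17 with a limit of 200 and 0.99 without the highest doublet scores. Of the 22 genes named for this comparison, 10 stayed past 2-fold in the same direction under every alternative that gave a value, among them Cd14, Nfil3, Thbs1, Ifit1, Ifit3 and Cd3d. Jchain is counted among the 10, but it gave no value without the cells with other markers or without the antibody transcripts. These settings removed the cells carrying it. Without the cells with other markers, Igkc stood at 1.04 and Igha at 0.46 or more. The latter is a lower bound, since the WT high cells held 0 UMIs of Igha.

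Interferon response genes had different ratios in the libraries. Of 12 measured, 3 were lower in high cells than in other neutrophils in both libraries, Isg15, Oasl2 and Isg20 (5 with limits of 50 or 200 per 10000 or by the mean over cells, and 1 with the totals that left out the abundant genes), and the list median was -0.20 in WT and -1.78 in APP/PS1. The list summed to 1452 CPM in WT and 943 in APP/PS1 high cells, and to 2107 and 2908 CPM in other neutrophils. Ifit3 was at -1.44 (-2.01 to -0.87) in APP/PS1 over WT among high cells and at 0.84 among other neutrophils, and Ifit1 at -1.23 (-1.68 to -0.78) and 0.46. In WT, however, 13 high cells carried the 82 UMIs of Ifit1 and 11 the 56 of Ifit3, and 1 cell gave 19.3% of the UMIs of the list. The median per cell was 6.51 per 10000 in WT and 5.69 in APP/PS1 high cells, nearer to each other than the sums. In other neutrophils it was 13.7 in WT and 17.5 in APP/PS1, so that per cell the list was lower in high cells in both libraries.

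**Figure D5:**
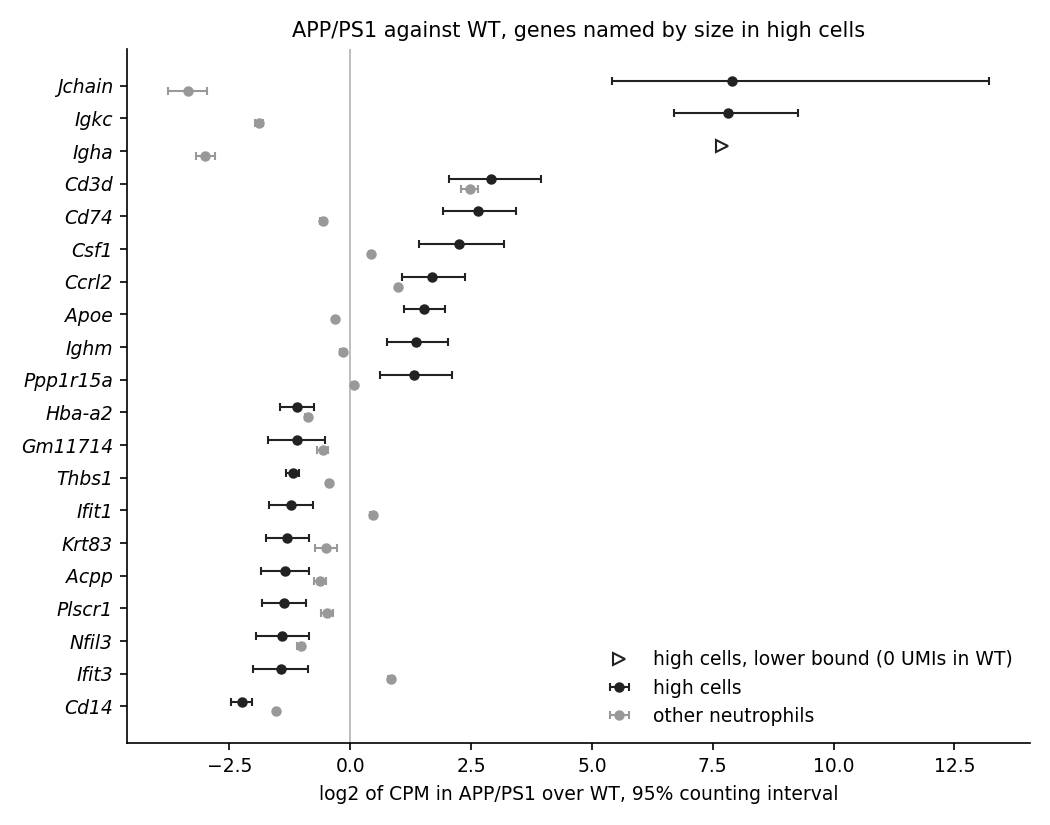
Log2 ratios of CPM in APP/PS1 over WT (x axis) are plotted for the 20 genes named by size (rows), black points for high cells and grey points for other neutrophils with 95% counting intervals, and an open triangle for the lower bound of Igha. Jchain, Igkc, Igha, Cd74 and Apoe lie on opposite sides of 0 in the 2 sets of cells, as do Ifit1 and Ifit3, whereas Cd14 and Cd3d lie on the same side.

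Markers of other cells were counted beside these results. Without the cells that held 2 or more UMIs of B cell, T cell, NK cell, basophil or eosinophil markers, the share of high cells differed by 0.906 points between the libraries, and the calls between genotypes changed as given above. The part of the platelet, monocyte, erythroid and dendritic cell markers was not tested. Platelet markers were lower in high cells, 4 of 4 measured, and the 6 markers summed to 165 against 587 CPM in WT and 254 against 735 in APP/PS1, with Pf4 the most abundant. The 5 B cell markers summed to 44.4 against 128 CPM in WT, where Ms4a1 was at 0 in high cells, and to 158 against 115 in APP/PS1, with Ighm the most abundant. In APP/PS1, 1 high cell held 43.8% of these UMIs, and without it the sum was 89.8 CPM, below that of the other neutrophils. The 8 monocyte markers summed to 1603 against 1085 CPM in WT and 1518 against 799 in APP/PS1. Of these, Ly6c2 alone was over 2-fold higher, at 1234 against 288 CPM in WT and 1118 against 236 in APP/PS1. The monocyte genes Csf1r (-1.67 and -0.92) and Ccr2 (-1.43 and -0.43) stood below the other neutrophils. None of the 8 was over 2-fold lower, while 3 were with a limit of 50 per 10000, 5 with a limit of 200 and 6 without the highest doublet scores. NK cell markers summed to 188 against 120 CPM in WT and to 186 against 165 in APP/PS1, and were found in 9 of 92 and 42 of 199 high cells. In each library 1 high cell held much of this, 93.5% in WT and 36.3% in APP/PS1, and without it the sums were 12.4 and 120 CPM, below the other neutrophils in both. Erythroid markers summed to 861 against 1183 CPM in WT and 502 against 667 in APP/PS1. Dendritic cell markers summed to 10.7 against 60.2 CPM in WT and to 46.8 against 43.2 in APP/PS1. In APP/PS1, 1 high cell held 23.4% of these UMIs, and without it the sum was 36.2 CPM, below that of the other neutrophils. Eosinophil markers summed to 1.53 against 12.5 CPM in WT and 3.65 against 18.8 in APP/PS1, with Prg2 and Epx at 0 in high cells. Basophil markers summed to 0 against 7.27 CPM in WT and 0.608 against 10.8 in APP/PS1. The highest 8% of doublet scores of each library held 5 high cells in WT (5.43%) and 24 in APP/PS1 (12.1%), against 6.79% and 7.52% of other neutrophils.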

How the data were processed

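The authors deposited raw UMI counts per gene and barcode, made with Cell Ranger 5.0.0 and mm10 per the labels, without further cell filters. Counts were analysed in Python 3.11.15 with numpy 2.4.6, scipy 1.17.1 and pandas 2.3.3. Barcodes were chosen by the limits given above. UMIs were summed per library and class and given as CPM of that class, with exact Poisson, Clopper-Pearson and conditional ratio intervals at the 95% level. There was 1 library per genotype, so no test was run, and called means over 2-fold. The procedure was tested on simulated counts, whose outcome is not given here. Doublets were scored with Scrublet in scanpy 1.11.5, whose automatic threshold called 1422 of 15216 WT and 1 of 15997 APP/PS1 barcodes and so did not work in the APP/PS1 library. The highest 8% per library were therefore left out as an alternative and kept otherwise. Other library sizes came from edgeR 4.0.16 (TMM) in R 4.3.3. Genes were named from fixed lists and by size: 15 highest and 15 lowest ratios in high against other cells, 10 and 10 in APP/PS1 against WT, and 10 by likeness. Members, lists and rules were chosen with earlier results of these data known. Gene positions came from GENCODE M21 and upstream bases from RefSeq. The symbol BC100530 matched no gene. Some list members are not reported here by name.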

Additional observations from a re-analysis of the deposited data

Results flagged for a closer look

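For 10 genes past 2-fold between the libraries in Camp/Ngp/Ltf-high cells, the APP/PS1 over WT ratio had the opposite sign in the other neutrophils. The difference between the 2 sets of cells was not tested, since each rests on the same pair of libraries. On the log2 scale these were Jchain (7.90 in high cells and -3.35 in other neutrophils), Igkc (7.82 and -1.89), Igha (at least 7.69 and -3.00), Cd74 (2.64 and -0.57), Apoe (1.53 and -0.31), Ighm (1.36 and -0.15), Ptma (1.05 and -0.39), Nme2 (1.02 and -0.63), Ifit1 (-1.23 and 0.46) and Ifit3 (-1.44 and 0.84). The ratio of Apoe in high cells was 0.17 with a limit of 200 per 10000. Those of Cd74 and Ighm were 0.32 and 0.12 without cells with markers of other cell types. Ighm is itself one of these markers, so its fall follows from the filter. Ptma, a chromatin-associated acidic protein, and Nme2, a nucleoside diphosphate kinase, lie just past 2-fold and were named after their values were seen.

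Barcodes under 1000 UMIs were left out of all comparisons, and among them 14 of 885 in APP/PS1 (1.58%) and 1 of 808 in WT (0.124%) reached 20 Camp, Ngp and Ltf UMIs per 10000. At this depth 2 UMIs of the genes suffice, which the WT barcode and 9 of the 14 APP/PS1 barcodes held. The other 5 APP/PS1 barcodes held 3 or more, 2 of them held 10 or more, and the highest held 60. At least 1 UMI was found in 5.76% of the APP/PS1 and 1.49% of the WT barcodes under 1000 UMIs, beside 7.50% and 3.56% of lymphocytes. The median depth of these barcodes was 669 UMIs in APP/PS1 and 669.5 in WT, far below the 3783 and 3900 UMIs of the lymphocytes.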

How the results depend on the processing

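No paired analysis was possible because there was 1 library per genotype, and no replicate could be left out. The share of high cells stayed higher in APP/PS1 under every alternative, by 0.699 points with a limit of 200 per 10000 and 1.74 with S100a8 and S100a9 at 10% or more. Median UMIs and genes of WT high cells over other cells came to 2.24 and 1.55 with a limit of 10, and thinned genes to 0.836 in WT and 0.848 in APP/PS1, below 1. In high against other cells, a limit of 200 gave 673 genes lower, totals without the abundant genes 406 higher and 221 lower, a mean of at least 5 CPM 367 higher, and of at least 100 CPM 51 higher and 214 lower. None of the 107 genes followed there reversed, but they were picked by these same ratios or calls, so this is no independent check. In APP/PS1 against WT, higher genes numbered 5 with the percentile limits of the study, 11 with S100a8 and S100a9 at 10% or more, 10 without the highest doublet scores, 4 without cells with other markers, 7 by the mean over cells, 84 with at least 20 CPM and 3 with at least 200 CPM. Lower genes numbered 18 with a limit of 200, 21 without cells with other markers, 25 with totals without abundant genes, 37 with at least 20 CPM and 2 with at least 200 CPM. Of the 22 genes followed there, which were picked in the same way, Ighm alone reversed. It stood at -0.34 with percentile limits and -0.23 without the highest doublet scores. The cause of these shifts was not tested, apart from the changed numbers of genes counted. The alternatives with a minimum of 500 UMIs and without antibody transcripts were chosen after seeing the data. The number of high cells, 92 in WT, limits the precision of genes at low CPM.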
